A study of Mus musculus with 12 samples.

Results

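The genes that encode the NF-κB transcription factors and their best known feedback products were read in common lymphoid progenitors (CLPs) of the *Firre* mouse models. The 10 genes, *Rela*, *Nfkb1*, *Rel*, *Nfkb2*, *Relb*, *Nfkbia*, *Nfkbiz*, *Tnfaip3*, *Tnf* and *Cd83*, were taken by symbol from the deposited table of 47643 genes, and all 10 were among the 14479 genes with a mean of at least 1 TPM that were tested. *Firre* is an X-linked gene for a long noncoding RNA, and the study asked what its loss and its return from a transgene do to gene expression in a blood progenitor. CLPs, sorted from bone marrow as Lin-, Sca1 low, cKit low and IL7Rα+ cells, came from male mice aged 27 to 32 weeks, with 1 poly(A)+ RNA-seq library per mouse and 4 mice per group. WT mice carried the intact locus. ∆Firre mice carried a germline deletion of the whole *Firre* locus, made with a CMV-Cre deleter that was then bred out, and were backcrossed to C57BL/6J before intercrossing. Firre rescue mice carried the same deletion, a *Firre* cDNA transgene behind a tetracycline-responsive element and a CMV minimal promoter, and CAG-rtTA3, the doxycycline-dependent activator, and received doxycycline chow. The transgene is therefore not under the promoter of *Firre*, and the deletion is present in every cell of both mutant groups. The study's methods name neither the transgenes nor doxycycline for the WT and ∆Firre mice.

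NF-κB is a family of dimers built from the subunits RelA, c-Rel, RelB and the processed products of *Nfkb1* and *Nfkb2*. In resting cells, inhibitor proteins such as IκBα, the product of *Nfkbia*, hold the dimers in the cytoplasm until the IKK kinase marks the inhibitor for destruction. The freed dimers then switch on *Nfkbia* and *Tnfaip3* themselves, which closes a negative feedback loop, and in the lymphoid lineage NF-κB is known above all for supporting survival and activation.

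NF-κB dimers bind short DNA sites known as κB motifs, which lie before many of the genes that they switch on. The 250 bases before the start site were read from the RefSeq promoter table (GRCm38.p6, the assembly family of the deposited data) and searched on both strands for the κB consensus motif, taken here as a run of 3 Gs, any 2 bases, a pair of Ts, any 1 base and a pair of Cs, with overlapping matches counted. The table held 9 windows for 6 of the 10 genes, and *Nfkbiz*, *Nfkb1*, *Relb* and *Cd83* were not matched. A match lay in at least 1 window of 4 of those 6 genes, *Nfkbia*, *Rel*, *Tnfaip3* and *Nfkb2*, and in 4.71% of all 27025 genes of the table. By window, it lay in 5 of the 9, and in 4.11% of all 32851. The windows shown are those of *Nfkbia* and *Rel*, which carry the differences between groups below, and of *Tnfaip3*, a feedback gene with the motif whose level did not pass in any comparison. The windows of *Rela* and *Tnf* held no match, which says only that these letters are not in them. All are given 5′ to 3′ on the strand of the gene, with matches in capitals: *Nfkbia* at chr12:55492648-55492897, *Rel* at chr11:23770970-23771219 and *Tnfaip3* at chr10:19015411-19015660, all on the minus strand. In each of them the motif reads on the strand opposite to the gene.
Nfkbia: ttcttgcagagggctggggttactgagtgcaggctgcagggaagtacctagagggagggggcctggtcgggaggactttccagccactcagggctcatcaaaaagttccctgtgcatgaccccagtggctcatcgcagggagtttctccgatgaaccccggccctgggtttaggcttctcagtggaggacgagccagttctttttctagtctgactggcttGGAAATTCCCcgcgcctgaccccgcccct
Rel: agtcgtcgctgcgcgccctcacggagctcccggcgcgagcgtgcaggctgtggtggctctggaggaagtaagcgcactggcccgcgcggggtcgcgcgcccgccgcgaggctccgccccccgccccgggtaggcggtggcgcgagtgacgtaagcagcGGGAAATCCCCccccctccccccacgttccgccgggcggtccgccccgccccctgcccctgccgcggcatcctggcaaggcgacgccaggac
Tnfaip3: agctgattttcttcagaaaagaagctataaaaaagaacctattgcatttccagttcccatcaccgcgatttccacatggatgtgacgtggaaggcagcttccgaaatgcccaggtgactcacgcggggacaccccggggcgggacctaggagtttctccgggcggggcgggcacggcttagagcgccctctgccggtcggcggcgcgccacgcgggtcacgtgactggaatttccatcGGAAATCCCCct
The match began 29 bases before the start site in *Nfkbia* and 12 bases before it in *Tnfaip3*. *Rel* held a pair of matches shifted by 1 base, at 92 and 91 bases, which the capitals show as one run. In *Nfkb2*, matches began at 39 (both strands), 11 and 10 bases before one start site and at 225 bases before another. These are matches of letters only. Binding was not measured.

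The libraries matched their labels for *Firre*, which lay between 25.2 and 31.6 TPM in WT, stood at 0 in each ∆Firre library and lay between 59.9 and 174 TPM in Firre rescue. CLP markers were present in every group, among them *Il7r* (353 to 525 TPM over the 12 libraries) and *Flt3*. Reads recovered from the spacing of the TPM values numbered between 10979183 and 18150935 in WT, 14355129 and 17577514 in ∆Firre, and 25751107 and 32532706 in Firre rescue. Genes above 0 TPM numbered between 15472 and 19877 in WT, 17910 and 19098 in ∆Firre, and 15140 and 16835 in Firre rescue. The Firre rescue libraries also bear library numbers in a range of their own, whereas WT and ∆Firre libraries share 2 ranges, so that in every comparison with Firre rescue the genotype, transgene and doxycycline cannot be told apart from depth or from what else may differ between these ranges, which the labels do not say. WT replicate 6 stood apart in markers of basophils and mast cells, whose 8 genes summed to 8964 TPM there, against 1046 to 2765 TPM in the other WT libraries. Results against WT are therefore also given without it where they turn on it.

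**Figure D1:**
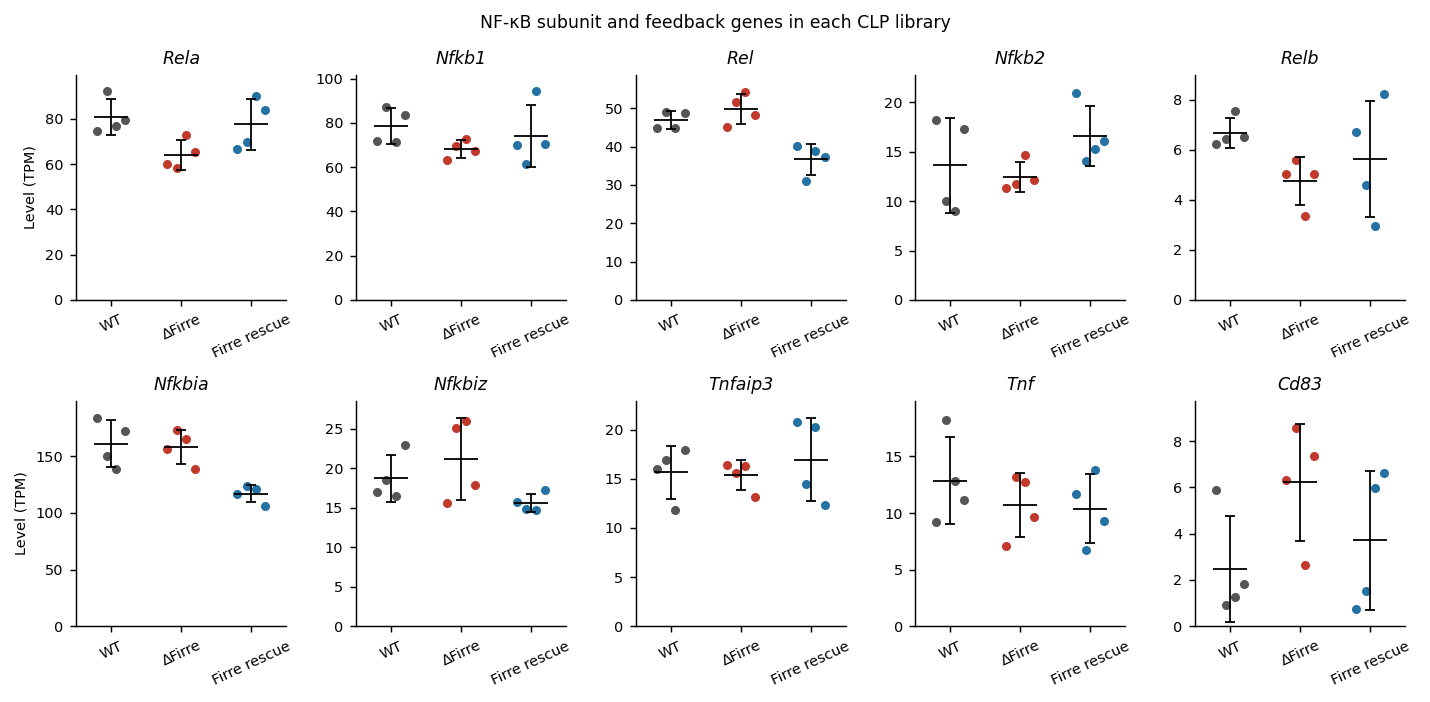
Level of each of the 10 genes in TPM (linear axes from 0) in every CLP library. Points are libraries (1 mouse each, 4 per group), and the horizontal line and bars are the mean ± SD. *Rel* and *Nfkbia* lie lower in all 4 Firre rescue libraries than in any WT or ∆Firre library, and the other 8 genes overlap between Firre rescue and both other groups.

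TPM are scaled for gene length, so that levels can be set side by side across genes. The most abundant transcript of the set was *Nfkbia* in all 3 groups, with mean levels of 161 ± 20.6 TPM in WT libraries, 158 ± 14.8 TPM in ∆Firre libraries and 117 ± 7.63 TPM in Firre rescue libraries (SD, n = 4 each). *Rela* and *Nfkb1* followed, and their ranges overlapped in every group, so that their order was not resolved. *Rel* came next, apart from its neighbors in all 3 groups. *Nfkbiz*, *Tnfaip3* and *Nfkb2* followed in WT and ∆Firre libraries at means between 12.5 and 21.1 TPM, each overlapping with the next, *Tnf* lay between 10.4 and 12.9 TPM on average, and *Relb* and *Cd83* were the lowest. The depth behind these levels differed, with between 3700 and 12043 reads per library on *Nfkb1* but between 7 and 135 on *Cd83* and between 66 and 301 on *Relb*.

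The loss of *Firre* was read by comparing ∆Firre with WT. None of the 10 genes passed the test at an adjusted p of 0.1 (limma on log2(TPM + 1), Benjamini-Hochberg adjustment over all genes tested), where 0.0207% of all genes did. At an unadjusted p under 0.05 there was 1 gene of the 10, *Rela*, where 5.30% of all genes lay under it. Limma-voom on the recovered reads called 0 of the 14470 genes that it covered. *Firre* was thus not called there, and whether it was among the genes covered is not given here. The 3 genes behind the share of 0.0207% include *Firre* itself, the 1 that was lower (adjusted p = 9.3e-06 in limma). The groups did not overlap for 2 of the 10 genes, *Rela* and *Relb*, both lower in ∆Firre, against 5.33% of all genes. In bulk libraries, fewer cells that make a transcript and less of it per cell cannot be told apart.

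*Rela*, at chr19:5637442-5648134, encodes RelA, the subunit with the strongest activation domain of the classical pathway. Its level was 74.5, 92.1, 76.8 and 79.6 TPM in WT replicates 6, 8, 10 and 11, and 60.1, 58.1, 72.7 and 65.1 TPM in ∆Firre replicates 8, 9, 11 and 12. Every ∆Firre library thus lay below every WT library, by a small gap between 72.7 and 74.5 TPM. The difference was −0.33 ± 0.12 on the log2(TPM + 1) scale (SE, n = 4 per group), with an unadjusted p of 0.0158 and an adjusted p of 0.929 in limma, and it did not pass. Within the 2 ranges of library numbers, each with 2 WT and 2 ∆Firre libraries, it was −0.37 and −0.29. Exons of *Rela* are 59.4% G and C, and when exon GC content was corrected for, the difference was −0.09.

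*Relb*, at chr7:19606217-19629438, encodes the subunit that pairs with the *Nfkb2* product in the alternative pathway. It read 6.23, 6.44, 7.56 and 6.49 TPM in WT replicates 6, 8, 10 and 11, and 5.02, 5.58, 3.35 and 5.01 TPM in the ∆Firre libraries 8, 9, 11 and 12. All ∆Firre values lay under all WT values, but the interval of the difference held 0 (−0.43, 95% interval −1.02 to 0.15, adjusted p = 0.964 in limma). With the GC correction or a pseudocount of 5, it was −0.27.

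*Cd83*, at chr13:43785112-43803133, encodes a surface protein of activated lymphocytes and dendritic cells, and was read here as a reported NF-κB target. It was 5.89, 0.929, 1.27 and 1.83 TPM in WT replicates 6, 8, 10 and 11, and 6.32, 8.55, 2.67 and 7.33 TPM in ∆Firre replicates 8, 9, 11 and 12. All but 1 of the ∆Firre libraries exceeded all WT libraries, and replicate 11 lay inside the WT range, where replicate 6 was the high one. The difference of 1.16 was the largest of the 10 in this comparison, with a 95% interval from −0.03 to 2.35 and an adjusted p of 0.929 in limma. It was 1.15 and 1.17 within the 2 ranges of library numbers. It was 0.60 with a pseudocount of 5, 1.64 with limma-voom and 1.55 without WT replicate 6, and it rests on few reads.

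For the other 7 genes the ∆Firre and WT libraries overlapped, with differences between −0.24 (*Tnf*) and 0.15 (*Nfkbiz*). With 1 library left out, these 2 values ranged from −0.37 to −0.069 and from 0.042 to 0.28. Within the 2 ranges of library numbers, the sign differed for *Tnf* (−0.53 and 0.05), *Nfkbiz* (−0.03 and 0.33) and *Tnfaip3* (−0.09 and 0.06). It was the same in both ranges for *Nfkbia*, *Nfkb1* (−0.33 and −0.06), *Nfkb2* and *Rel*. The interval was narrowest for *Nfkbia*, at −0.02 (95% interval −0.25 to 0.20), and for *Rel*, at 0.08 (−0.15 to 0.31), which was 0.043 to 0.13 with 1 library left out. Both intervals are on the deposited scale, per gene, unadjusted and picked as the narrowest, so a difference outside them is not excluded. The intervals were wide for *Tnf* (−0.82 to 0.34) and *Nfkb2* (−0.56 to 0.43).

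Firre rescue was set against ∆Firre to see what the transgene, with doxycycline, adds to the deletion. *Nfkbia* and *Rel* fell, and no member rose. The count was 2 of 10 lower where 19.3% of all genes tested were called lower, and 0 of 10 higher where 8.58% were called higher, so that the count is near that of the table as a whole. Among members with higher values, *Rela* alone had an unadjusted p under 0.05, and it passed under some alternatives, limma-voom included. The groups did not overlap for the same 2 genes, against 21.9% of all genes. Across the 10, the median difference was 0.03, and across all genes it was −0.16.

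*Nfkbia*, at chr12:55489409-55492647, encodes IκBα, the inhibitor that NF-κB induces against itself. It was 184, 150.2, 138 and 172 TPM in WT replicates 6, 8, 10 and 11, and 156, 173, 165 and 139 TPM in ∆Firre replicates 8, 9, 11 and 12. In Firre rescue replicates 1 to 4 it was 117, 124, 121 and 106 TPM. All 4 Firre rescue libraries lay below all 8 others, and the spread between them was the smallest of the 3 groups. Compared with ∆Firre the difference was −0.43 ± 0.10 (SE), with an adjusted p of 0.0142 in limma. A lower difference was found for 28.0% of all genes, and relative to the median of all genes it was −0.27. The call held in all 22 alternatives tried, at −0.49 to −0.31, with adjusted p between 0.0127 and 0.0910 in limma.

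*Rel*, at chr11:23736847-23770969, encodes c-Rel, the subunit most typical of lymphoid cells. It read 44.7, 49.1, 44.9 and 48.7 TPM in WT replicates 6, 8, 10 and 11, and 45.1, 51.7, 54.3 and 48.3 TPM in ∆Firre replicates 8, 9, 11 and 12. Firre rescue replicates 1 to 4 had 40.1, 30.9, 38.7 and 37.3 TPM, with replicate 2 the lowest and none reaching a library of the other groups. The difference from ∆Firre was −0.43 ± 0.11 (SE), with an adjusted p of 0.0150 in limma, and 27.8% of all genes had a lower one. *Rel* exons hold 44.1% G and C, fewer than those of any other member. When exon GC content was corrected for, the difference was −0.05 with an adjusted p of 0.790 in limma, and the call was lost, whereas *Nfkbia*, with 52.9% G and C, stayed called at −0.35 (adjusted p = 0.0598).

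*Rela* was 66.6, 69.6, 90.2 and 84.0 TPM in Firre rescue replicates 1 to 4. Replicates 3 and 4 lay above every ∆Firre library and replicates 1 and 2 lay inside their range. The difference was 0.27 ± 0.12 (SE, adjusted p = 0.134 in limma) and did not pass. It passed at 0.32 to 0.40 when libraries were rescaled by median ratios, by quantiles, without the most abundant gene classes or with limma-voom, and it was −0.06 after the correction for exon GC content, with the sign turned.

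**Figure D2:**
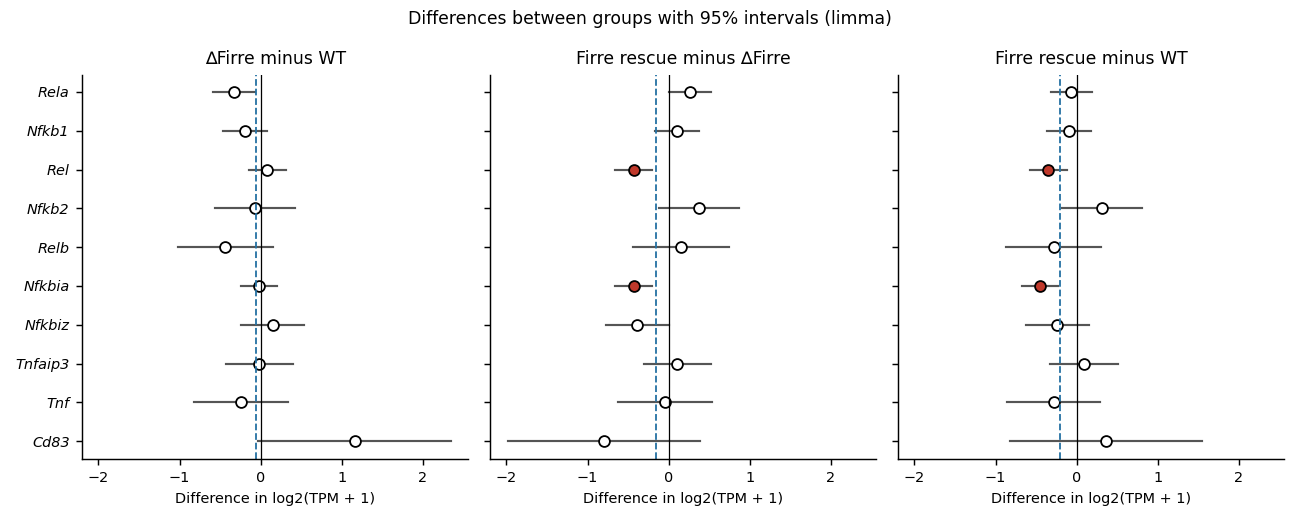
Difference between groups in log2(TPM + 1) for each gene and comparison, with the 95% interval from limma. Filled points passed an adjusted p of 0.1, the solid line is 0 and the dashed line is the median of all 14479 genes tested. *Nfkbia* and *Rel* are the filled points in both comparisons with Firre rescue, and no point is filled for ∆Firre minus WT.

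The other IκB-family member, *Nfkbiz* (chr16:55811375-55838954), encodes IκBζ, a nuclear protein that works with NF-κB at secondary response genes. Firre rescue libraries read 15.7, 14.8, 14.7 and 17.2 TPM, against 15.6, 25.1, 25.9 and 17.9 TPM in ∆Firre replicates 8, 9, 11 and 12. The ∆Firre libraries split into a high and a low pair. Of the low pair, replicate 8 lay inside the Firre rescue range and replicate 12 above it. The difference of −0.38 did not pass (95% interval −0.77 to 0.00, adjusted p = 0.150 in limma). Without ∆Firre replicate 8, it was −0.51 and passed (adjusted p = 0.0754 in limma), and with the GC correction it was −0.11 (adjusted p = 0.732).

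*Tnfaip3*, at chr10:19000910-19015410, encodes the ubiquitin-editing enzyme that shuts off signaling upstream of IKK. It was 20.7, 14.4, 20.3 and 12.3 TPM in Firre rescue replicates 1 to 4, against 16.4, 15.6, 16.3 and 13.2 TPM in ∆Firre replicates 8, 9, 11 and 12, and 11.8 to 17.9 TPM in the WT libraries. The Firre rescue libraries lay on both sides of the ∆Firre libraries and overlapped with WT, and differences from ∆Firre (0.11, 95% interval −0.31 to 0.52) and WT (0.09, −0.32 to 0.51) did not pass. With the GC correction, that from ∆Firre was 0.42 and did not pass either (adjusted p = 0.149 in limma). It was 0.0049 without Firre rescue replicate 1 and 0.24 without replicate 4. This feedback gene thus differs from *Nfkbia* in its call, although the difference between the pair was not tested.

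*Nfkb1*, at chr3:135584655-135691969, encodes the precursor of the partner of RelA, and *Nfkb2*, at chr19:46300994-46312400, that of the partner of RelB. *Nfkb1* ranged from 61.2 to 94.4 TPM in Firre rescue libraries, and read 63.3, 69.5, 72.8 and 67.3 TPM in ∆Firre replicates 8, 9, 11 and 12 and 71.9, 87.2, 71.2 and 83.5 TPM in WT replicates 6, 8, 10 and 11. *Nfkb2* read 20.9, 14.1, 15.3 and 16.1 TPM in Firre rescue replicates 1 to 4, 11.3, 11.8, 14.7 and 12.2 TPM in the ∆Firre libraries in the same order as above, and from 8.98 to 18.2 TPM in WT libraries. Firre rescue replicate 3 held the highest *Nfkb1* and replicate 1 the highest *Nfkb2* of all libraries, and the WT libraries fell into a high and a low pair for *Nfkb2*. Against ∆Firre, the differences were 0.10 (95% interval −0.17 to 0.37) for *Nfkb1* and 0.38 (−0.11 to 0.87) for *Nfkb2*, neither of which passed. With the GC correction they were 0.20 and 0.05.

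*Tnf*, at chr17:35199367-35202007, encodes the cytokine that both triggers NF-κB and is made in response to it. It read 9.24, 18.2, 12.8 and 11.1 TPM in WT replicates 6, 8, 10 and 11, 7.13, 13.2, 12.7 and 9.69 TPM in ∆Firre replicates 8, 9, 11 and 12, and 11.7, 6.73, 13.8 and 9.33 TPM in Firre rescue replicates 1 to 4. The 3 groups overlapped throughout. *Relb* (6.70, 4.59, 2.97 and 8.22 TPM) and *Cd83* (0.766, 1.51, 5.95 and 6.64 TPM) spread widest in Firre rescue replicates 1 to 4, and their differences from ∆Firre, 0.15 and −0.80, did not pass. That of *Cd83* rests on single libraries, at −0.41 without Firre rescue replicate 1 and −1.12 without replicate 4.

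Firre rescue was also set against WT. It shares the Firre rescue libraries with the comparison above, so that both rest on the same 4 values of each gene. *Nfkbia* and *Rel* were again lower, 2 of 10 where 19.4% of all genes were called lower, and 0 of 10 were higher where 4.82% were (0 also at an unadjusted p under 0.05 and with limma-voom). The groups did not overlap for these 2 genes, against 18.0% of all genes. *Nfkbia* differed by −0.45 ± 0.10 (SE, adjusted p = 0.0125 in limma) and *Rel* by −0.35 ± 0.11 (adjusted p = 0.0421). Without WT replicate 6, the values were −0.39 and −0.37, and both stayed called (adjusted p = 0.0365 and 0.0644 in limma).

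These calls against WT depended on the scaling. The median of all genes was −0.21 in this comparison. After rescaling by median ratios, *Nfkbia* was at −0.26 (adjusted p = 0.174 in limma) and *Rel* at −0.16 (adjusted p = 0.257), and neither passed. With limma-voom 0 of the 10 genes passed. With the GC correction, *Nfkbia* was at −0.29 (adjusted p = 0.127 in limma) and *Rel* at 0.00 (adjusted p = 0.993).

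Since the differences of *Rel* and *Rela* from ∆Firre had opposite signs, the ratio of these genes was formed within each library. It was chosen after the values were seen and is given as a description, with no test. *Rel* over *Rela* was 0.601, 0.533, 0.585 and 0.612 in WT replicates 6, 8, 10 and 11, and 0.750, 0.889, 0.746 and 0.741 in ∆Firre replicates 8, 9, 11 and 12. In Firre rescue replicates 1 to 4 it was 0.601, 0.445, 0.429 and 0.444. All ∆Firre libraries lay above all others, and Firre rescue lay below WT except in replicate 1. As a share of the summed level of the 5 subunit genes, *Rel* made up at most 21.5% in WT libraries, 24.4 to 26.3% in ∆Firre libraries and 16.0 to 19.6% in Firre rescue libraries, and the 3 groups did not overlap. *Nfkb1* kept a share of 32.7 to 39.1% over all 12 libraries. The summed level itself overlapped between the groups, at 209 to 245 TPM for WT, 185 to 218 TPM for ∆Firre and 180.5 to 242 TPM for Firre rescue. Exons of *Rel* and *Rela* hold 44.1% and 59.4% G and C, and under the GC correction the differences of both genes lay between −0.15 and 0.06 in the 3 comparisons.

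**Figure D3:**
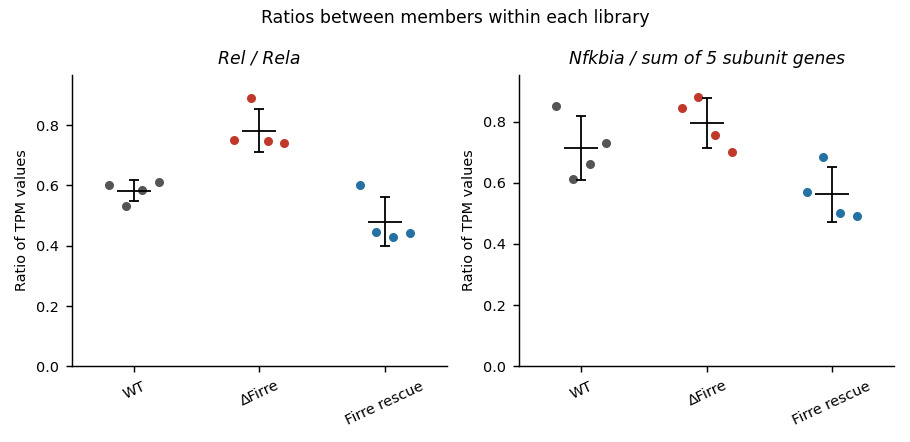
Ratio of TPM values within each library, *Rel* over *Rela* (left) and *Nfkbia* over the sum of the 5 subunit genes (right), on linear axes from 0. Points are libraries and bars are the mean ± SD of 4. For *Rel* over *Rela*, the ∆Firre libraries lie between 0.741 and 0.889 and all others at 0.612 or below.

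*Nfkbia* was also set against the genes of the subunits that its product holds, as its TPM over the sum of the 5 subunit genes. This ratio was 0.714 ± 0.104 for WT, 0.796 ± 0.082 for ∆Firre and 0.562 ± 0.089 for Firre rescue (SD, n = 4 each). Firre rescue libraries lay below all ∆Firre libraries, with a highest value of 0.685 against a lowest of 0.700, and overlapped with WT.

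Deviations of each library from its group mean show how members vary together among mice of one kind. Over 12 libraries, which differ in depth, the closest pair was *Rel* and *Tnf* with a Pearson correlation of 0.82, followed by *Nfkb1* and *Tnf* (0.75) and *Nfkb1* and *Rela* (0.75). The most opposed pair was *Nfkb1* and *Relb* (−0.54). Among all named genes tested, those whose deviations were most like *Nfkbia* were *P2ry10* (0.90), *Tmem150b* (0.88), *Tarm1* (0.88), *1700020L24Rik* (0.86) and *Gas7* (0.86). These are descriptions chosen from many pairs. No other member was among those 5 genes.

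The rest of the pathway was read through lists of genes ordered by their role. Their counts stand beside those shares of all genes given above, 19.3% lower and 8.58% higher against ∆Firre, and 19.4% lower and 4.82% higher against WT. Beside the 10 members, 0 of the genes on these lists passed in ∆Firre against WT with limma or limma-voom, and at most 1 per list had an unadjusted p under 0.05. Among 14 tested genes for other IκB proteins and inhibitors, 2 fell in Firre rescue against ∆Firre and 3 against WT. They include *Tax1bp1*, an adaptor of the *Tnfaip3* product (−0.49, adjusted p = 0.0049 in limma against ∆Firre), and *Cyld*, a deubiquitinase (−0.44, adjusted p = 0.0146), while *Otulin*, which removes linear ubiquitin chains, was at 0.02 and did not pass. *Tax1bp1* lay between 123 and 166 TPM in Firre rescue libraries and between 186 and 200 TPM in ∆Firre libraries, without overlap. After the correction for exon GC content, both *Tax1bp1* (−0.04) and *Cyld* (−0.05) lost their call against ∆Firre. Under it, 1 of the 14 genes, *Zc3h12a*, was lower against ∆Firre and 0 were called against WT.

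Of 12 genes for the IKK complex and kinases upstream of it, 4 fell and 1 rose against ∆Firre. *Chuk* and *Ikbkb*, the catalytic subunits IKKα and IKKβ, fell by 0.40 and 0.32 on the log2 scale (adjusted p = 0.0250 and 0.0934 in limma). *Map3k14*, the kinase NIK that starts the alternative pathway, rose by 0.81 (adjusted p = 0.0228), from 7.84 to 9.98 TPM in ∆Firre libraries to 12.7 to 23.1 TPM in Firre rescue libraries. Against WT, 4 of the 12 fell and none rose, and *Map3k14* was at 0.42 and did not pass. *Tab2* and *Tbk1*, an adaptor of the TAK1 kinase and an IKK-related kinase, were the most abundant of the list, and their differences from ∆Firre were −0.39 (adjusted p = 0.0379 in limma) and −0.17, which did not pass. The lower counts depended on the processing. Against ∆Firre, the 4 became 2 with median ratio rescaling and 0 with the GC correction, where *Chuk* was at 0.01, and against WT they became 1 and 0. The shares of all genes called lower fell as well, to 12.9% and 5.80% against ∆Firre and 8.67% and 5.04% against WT. *Map3k14* kept its call in all 22 alternatives.

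Adaptors and ubiquitin ligases counted 20 genes, of which 4 fell and 2 rose against ∆Firre and 9 fell against WT. The 4 and 2 of 20 are close to the shares of all genes. The 9 against WT became 1 with median ratio rescaling, 2 with quantile normalization and 1 with limma-voom or the GC correction, where the share of all genes called lower also fell, to 8.67%, 8.36%, 10.3% and 5.04%. *Irak3*, a brake on Toll-like and IL-1 receptor signaling, fell most (−1.55, adjusted p = 0.0123 in limma), from 9.18 to 18.3 TPM in ∆Firre to 3.39 to 5.20 TPM in Firre rescue. *Birc3*, a ubiquitin ligase that holds NIK in check and is itself an NF-κB target, fell by 0.51 (adjusted p = 0.0287), and lost its call with the GC correction (−0.16, adjusted p = 0.497). *Irak1* and *Birc2*, a kinase of Toll-like receptor signaling and a ubiquitin ligase, were the most abundant of the list, and they were at −0.31 and −0.26 against ∆Firre and did not pass (adjusted p = 0.124 and 0.135 in limma). Against WT, *Irak4*, a kinase upstream of *Irak1*, was at −0.57 (adjusted p = 0.0351), and its call was lost in 5 of 22 alternatives, with rescaling, quantiles, limma-voom and both GC corrections (−0.42 to −0.27, adjusted p between 0.112 and 0.282). Of 15 receptors, 3 fell and 1 rose against ∆Firre, and 4 fell against WT. The 3 were *Il1rl1*, *Il1rap* and *Il18r1*, all of the IL-1 receptor family, with −1.79, −1.26 and −1.21 (adjusted p = 0.0275, 0.0027 and 0.0013 in limma). *Tlr7*, an abundant receptor for RNA, was at −0.25 and did not pass (adjusted p = 0.164). Of 5 tested ligands, *Tnfsf14*, the TNF-family cytokine LIGHT, fell in both comparisons (−0.88 and −1.05, adjusted p = 0.0333 and 0.0168), and *Ltb* and *Il18* did not pass.

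Other reported NF-κB targets, 19 of 25 tested, fell for 8 genes and rose for 1 against ∆Firre, and fell for 7 against WT. Some of these genes, *Birc3* among them, also stand on the lists of inhibitors or adaptors above and are counted in both. With median ratio rescaling 5 of 19 fell in each comparison, and with the GC correction also 5, beside the shares of all genes given above for these settings. *Ccl3*, a chemokine, was 119 to 170 TPM in ∆Firre and 8.51 to 21.9 TPM in Firre rescue (−3.25, adjusted p = 0.0002 in limma). *Il6* stood at 0 TPM in each Firre rescue library and lay between 9.19 and 19.3 TPM in ∆Firre, and it reached 62.4 TPM in a WT library. *Bcl2*, the survival factor, was 138 to 168 TPM in ∆Firre and 65.6 to 101 TPM in Firre rescue (−0.92, adjusted p = 0.0009). Beside these falls stood the markers of basophils and mast cells, cells that also make *Ccl3*, *Il6* and *Il1rl1*. All 8 of them fell in both comparisons, and their sum was 2916 to 4286 TPM in ∆Firre, 1046 to 8964 TPM in WT and 64.1 to 142 TPM in Firre rescue, and *Il4* stood at 0 in each Firre rescue library. Their part in the changes of these targets was not tested.

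**Figure D4:**
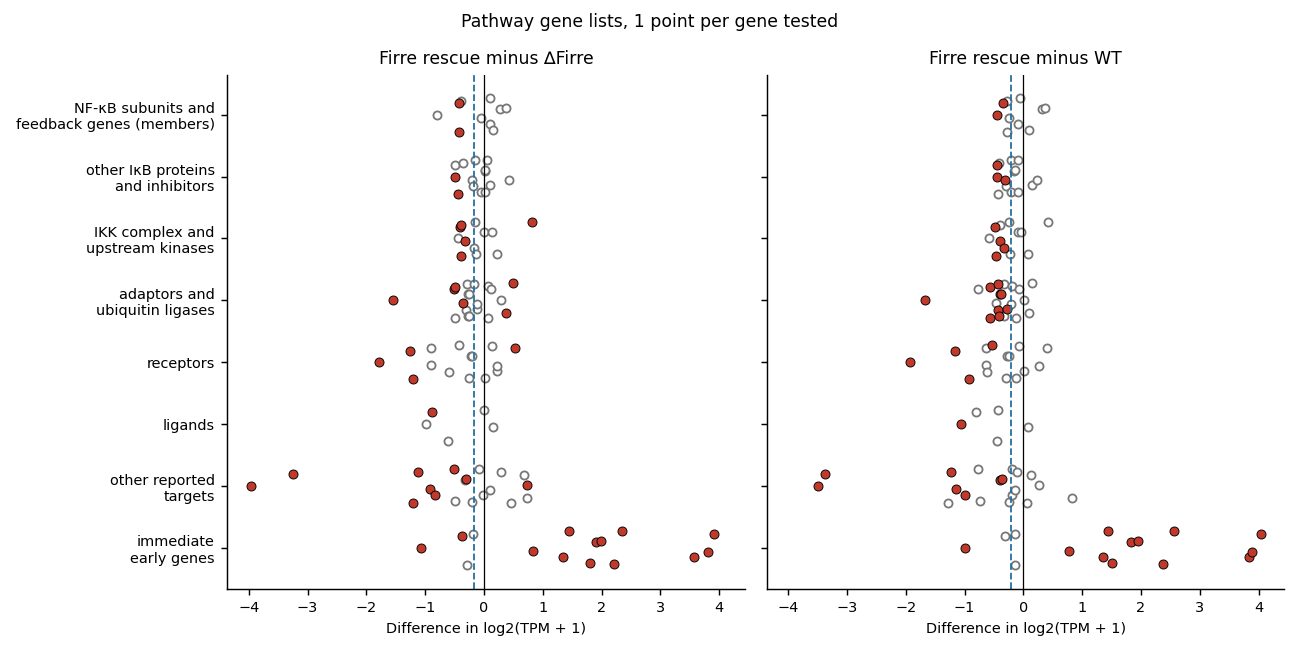
Difference in log2(TPM + 1) for every tested gene of each list, Firre rescue minus ∆Firre (left) and minus WT (right). Filled points passed an adjusted p of 0.1 in limma, and the dashed line is the median of all genes tested. The members lie between −0.80 and 0.38, whereas 11 of 15 immediate early genes lie to the right and passed in both panels.

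Immediate early genes, which respond fast to stimulation and to cell handling, moved the other way. Of 17 genes, 15 of which were tested, 11 rose and 2 fell against ∆Firre, and 11 rose and 1 fell against WT, with none called in ∆Firre against WT. *Fos* was 0.523 to 26.5 TPM in ∆Firre and 94.2 to 184 TPM in Firre rescue (3.91, adjusted p = 0.0044 in limma), and *Jun* rose by 3.80 (adjusted p = 0.0008). *Fosb* lay at 0.801 TPM or below in WT and ∆Firre libraries and at 11.5 to 29.5 TPM in Firre rescue, so that it passed the filter on low values only through the group where it was high, and it is 1 of the 11. *Btg2*, an antiproliferative gene, was 1 of the 2 that fell against ∆Firre (−0.38, adjusted p = 0.0559). It lost its call with median ratio rescaling, limma-voom or the GC correction. The other was *Klf6*, which also fell against WT. *Klf6* stayed called lower in both comparisons with median ratio rescaling or quantile normalization. The sum of the 17 genes was 303 to 374 TPM in WT, 281 to 426 TPM in ∆Firre and 890 to 1184 TPM in Firre rescue. No NF-κB member was called higher beside them on the deposited scale. *Rela* was called higher against ∆Firre in 5 of 22 alternatives, at 0.32 to 0.40. The part of the immediate early response, or of depth, in the levels of *Nfkbia* and *Rel* was not tested.

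**Figure D5:**
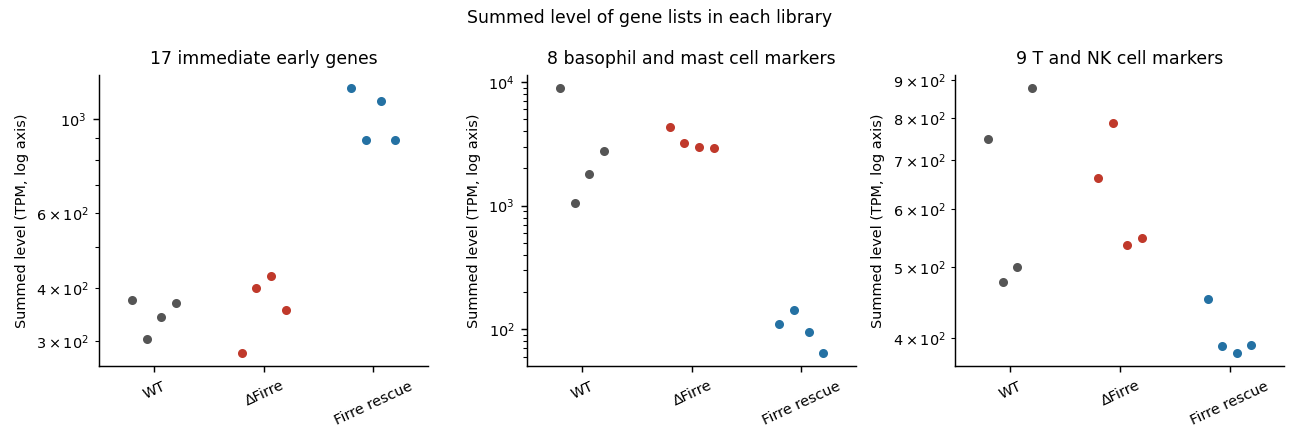
Summed level (TPM, log axis) of the immediate early genes, of the basophil and mast cell markers and of the T and NK cell markers in each library. Points are libraries, 4 per group. Firre rescue libraries lie at 890 to 1184 TPM for the immediate early genes, above all others, and at 64.1 to 142 TPM for basophil and mast cell markers, below all others.

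Markers of other cells were read in the same way. The study's lineage antibodies, against CD3, Gr-1, B220, Ter-119 and Mac-1, would remove most T cells, granulocytes, B cells, red cell precursors and monocytes from the gate. They do not include the NK cell antibody that the study used on blood, and how many NK cells they remove was not tested. T and NK cell markers summed to 537 to 786 TPM in ∆Firre and 382 to 453 TPM in Firre rescue, with 3 of 7 lower, *Ncr1*, *Klrb1c* and *Trbc2*, of which the first pair mark NK cells. *Cd3e*, which defines T cells, stayed at 0.732 TPM or below in every library and stood at 0 in each Firre rescue library. Plasma cell markers summed to 1620 to 3422 TPM and 306 to 530 TPM, with 4 of 7 lower and 2 higher, and ILC2 markers to 107 to 130 TPM and 48.2 to 69.4 TPM, with 4 of 5 lower. Of the neutrophil and the monocyte and macrophage markers, 2 of 8 each were lower, of the mature B cell markers 2 of 5 were lower and 1 was higher, of the dendritic cell markers 2 of 7 were lower and 1 was higher, and of the erythroid markers 0 of 5 were called, also at an unadjusted p under 0.05 in limma. Sums of these 5 lists overlapped between ∆Firre and Firre rescue. CLP markers summed to 7606 to 7950 TPM in ∆Firre and 9127 to 9968 TPM in Firre rescue, with 2 of 10 higher, *Rag1* and *Ly6d*, and 1 lower, *Kit*. With median ratio rescaling 3 were higher and 1 lower, and with the GC correction 6 were higher, *Il7r* and *Flt3* among them, and 0 lower, where in both settings at most 13.7% of all genes were called higher. The share of these cells in the levels of the 10 genes was not tested.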

How the data were processed

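The authors trimmed paired-end reads with cutadapt, mapped them to mm10 with TopHat2 2.1.1 and counted them per Gencode gene with featureCounts. The deposited table gives TPM, in which the authors set each gene's reads against its length and every library to one total, for 47643 genes in 12 libraries. TPM give no depth, so reads per gene were recovered from the spacing of values (99.9% of the genes tested). They served for depths and for limma-voom only, and cover counting error only. Gene names were joined by gene identifier from the reference tables.

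Genes with a mean of at least 1 TPM over the 12 libraries (14479) were fitted as log2(TPM + 1) with limma 3.58.1 in R 4.3.3 (lmFit, eBayes with a trend), with 3 groups in one fit. A gene near 0 in one group (*Fosb*, *Il6*, *Il4*) passed only through the groups where it was high. Fold changes are on this scale, which understates those of low genes. P-values are two-sided and Benjamini-Hochberg adjusted, and 0.1 or less was called. With 1 library per mouse, they measure the spread between mice. Exon GC content was taken from NCBIM37 gene models that share the identifier (13086 genes, 90.4%), and was corrected per library by splines with 4 degrees of freedom. The fit was also run on simulated data, but the outcome is not given here and no result rests on it. Python 3.11.15, pandas 2.3.3 and matplotlib 3.10.9 made the tables and figures.

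Members and lists were chosen with earlier results of these data known. Every member was named, and from each pathway list the 2 called genes with the largest difference in each comparison and the 2 of highest mean level. *Il4*, *Il7r*, *Flt3*, *Zc3h12a*, *Klf6*, *Cd3e*, *Ncr1*, *Klrb1c*, *Trbc2*, *Rag1*, *Ly6d*, *Kit* and the ratios lie outside that rule and were chosen after their values were seen. Of the genes on the lists, 2 were not found. Alternatives were other pseudocounts (0.1 and 5), filters, scalings, blocks, libraries left out, limma-voom and the GC correction. Strand and multi-mapping settings are not given in the sources used here, so reads of overlapping or antisense genes cannot be told apart.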

Additional observations from a re-analysis of the deposited data

How the results depend on the processing

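No member was called in ∆Firre against WT under any of 24 alternatives. The number of all genes called there was 3, *Firre* among them. It became 6 with no filter, and 1 with only the groups compared or the library number range as a block. It was 0 with limma-voom, which covered 14470 genes and did not call *Firre*, and 1 to 5 with 1 library left out. Against ∆Firre, Firre rescue had 4043 genes called, 2682 at an adjusted p of 0.05, and 2554 with the GC correction against 3798 of the same 13086 genes without it. The correction left 1 member called, as did the GC correction with median ratio rescaling. Against WT, 3512 genes were called, 2263 with only the groups compared, 1996 with the GC correction (3344 of the same genes without it) and 2205 with rescaling added. There, 0 members were called with median ratio rescaling, limma-voom, the GC correction or both corrections, and 1 with quantile normalization or recomputed TPM. Rescaling moved the share of higher calls against ∆Firre from 30.7% to 50.2%, and against WT from 19.9% to 50.6%, and the GC correction moved them further, to 70.3% and 66.9% (from 32.4% and 20.7% over the same genes), so that most calls were then higher. The causes were not tested.

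The mouse numbers 8 and 11, shared by WT and ∆Firre, did not pair the libraries (correlations of deviations −0.03 and −0.04). A fit with them as a replicate block used only the 4 libraries that bear these numbers, of the 8 of WT and ∆Firre. In it 0 genes were called, *Nfkbiz* was at −0.033 and *Tnf* at −0.53. These 4 libraries also make up a whole range of library numbers, for which differences without a block are given above. Those differences were the same, at −0.033 for *Nfkbiz* and −0.53 for *Tnf*, so the block did not move these values. For the count of 0 genes called, the part of the block and that of the smaller number of libraries cannot be told apart.

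Some values turned sign. Of these, *Chuk* against ∆Firre (−0.40) and *Rel* against WT (−0.35) had been called and lost their calls, and the others, up to 0.27 (*Rela* against ∆Firre) and −0.28 (*Relb* against WT), had not been called. In ∆Firre against WT, with median ratio rescaling, quantile normalization, recomputed TPM and limma-voom in turn, *Nfkbia* was 0.047, 0.028, 0.024 and 0.050 and *Tnfaip3* was 0.052, 0.066, 0.030 and 0.076. *Nfkb2* was 0.0020 with quantile normalization and 0.011 with limma-voom. With the GC correction, alone and with rescaling, *Nfkbia* was 0.056 and 0.065 and *Nfkb2* 0.17 and 0.18. In Firre rescue against ∆Firre, *Tnf* was 0.063, 0.16, 0.0062 and 0.061 under those 4 scalings, and 0.083 and 0.088 under the GC corrections, where *Rela* was −0.059 and −0.042 and *Chuk* 0.015 and 0.027. In Firre rescue against WT, *Nfkb1* was 0.093, 0.040, 0.0073 and 0.10 and *Rela* 0.12, 0.060, 0.039 and 0.14 under the 4 scalings, and *Relb* was 0.062 with quantiles. Under the GC corrections, *Nfkbiz* was 0.026 and 0.044, *Nfkb1* 0.074 and 0.098, and *Rel* 0.0027 and 0.021. With 1 library left out, ranges were −0.092 to 0.043 (*Nfkbia*), −0.23 to 0.086 (*Nfkb2*) and −0.14 to 0.054 (*Tnfaip3*) in ∆Firre against WT. They were −0.21 to 0.13 (*Tnf*), −0.021 to 0.18 (*Nfkb1*) and −0.031 to 0.38 (*Relb*) in Firre rescue against ∆Firre, and −0.14 to 0.0055 (*Rela*) and −0.028 to 0.23 (*Tnfaip3*) against WT. *Rela* also passed against ∆Firre without Firre rescue replicate 1 (0.34, adjusted p = 0.0821 in limma). The rescaling joined with the GC correction was added after the data were seen. Depth limits *Cd83*, *Relb* and *Tnf* most.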
